A study of Mus musculus with 12 samples.

Results

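Rbm3 and Cirbp were followed through RNA-seq of mpkCCD cells, a mouse line derived from principal cells of the cortical collecting duct, with and without the tonicity-responsive transcription factor NFAT5. The members were the rows of the expression table named Rbm3 or Cirbp, 2 of 52015 genes. They were selected on their group means, chiefly the lower Rbm3 mean at 600 mosmol/kg, so their levels and ratios are given as a description without a test. The table holds 1 value per gene and group, given as FPKM (fragments per kilobase of exon, scaled to the depth of the library). In the Scr groups the value of most genes, Rbm3 and Cirbp among them, equalled the mean of the FPKM of 2 libraries.

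The 12 libraries fell into 4 groups. Scr_300 (2 libraries) and Scr_600 (2 libraries) were control cells that had received a scramble guide RNA, and Nfat5-KO_300 (4 libraries) and Nfat5-KO_600 (4 libraries) were cells from 2 CRISPR/Cas9 knockout clones, N1 and N3. Cells were kept for 5 days either at 300 mosmol/kg or at 600 mosmol/kg, reached with 100 mM NaCl and 100 mM urea added to the medium. All groups were grown on plastic at one incubation temperature, so no group was cooled. The libraries of a clone shared that clone, and the table did not keep the clones apart, so clone and genotype cannot be told apart here.

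RBM3 and CIRBP are small nuclear-cytoplasmic proteins with an amino-terminal RNA recognition motif and a glycine-rich tail. Both are known as cold-shock proteins: their mRNAs rise when mammalian cells are cooled mildly and decline with heat, and the proteins bind other mRNAs, influence splicing, polyadenylation and translation, and enter stress granules. CIRBP is also known for its response to ultraviolet light, hypoxia and osmotic stress, and RBM3 for its support of translation in the cold and its protective role in neurons.

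Rbm3 (ENSMUSG00000031167) lies on the minus strand at chrX:8138975-8145880 and Cirbp (ENSMUSG00000045193) on the plus strand at chr10:80165985-80172786 of GRCm38, the build used for the deposited values. GENCODE M21 lists 11 transcripts of Rbm3 with 4698 bases of exon in all, and 7 transcripts of Cirbp with 2604 bases. The 60 bases shown here code for the most conserved stretch of the RNA recognition motif, in which the 24 bases in capitals are the codons of the RNP1 core, the strand that contacts RNA. They come from exons of Rbm3 (chrX:8144603-8144662, minus strand), Cirbp (chr10:80170033-80170092, plus strand), Rbmx, the X-linked relative (chrX:57391302-57391361, minus strand), and from the processed pseudogene Rbm3-ps (chr1:150265820-150265879, minus strand). They are shown because they tell how far reads of the members and of their relatives can be separated.
Rbm3: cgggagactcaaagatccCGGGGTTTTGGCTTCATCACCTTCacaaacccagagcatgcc
Cirbp: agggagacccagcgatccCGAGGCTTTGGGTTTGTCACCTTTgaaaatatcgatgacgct
Rbmx: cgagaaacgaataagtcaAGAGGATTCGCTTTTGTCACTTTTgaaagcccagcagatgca
Rbm3-ps: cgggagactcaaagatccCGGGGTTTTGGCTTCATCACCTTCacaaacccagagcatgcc

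Cirbp differed from Rbm3 at 20 of these 60 bases, 6 of them within the capitals, and Rbmx differed from Rbm3 at 25, with 10 in the capitals. Rbm3-ps differed at 0 of the 60. Over the 465 coding bases of Rbm3, a blastn search of the annotated transcripts found 4 processed pseudogenes on the same strand with at least 95% identity over 200 or more bases, a rule chosen after the data were seen. Rbm3-ps had 3 mismatches over 465 bases, Gm10156 had 4 over 465, Gm13624 had 15 over 465, and Gm48583 had 0 mismatches over 223 aligned bases with 98.7% identity counting gaps. A transcript of Phospho2 matched Rbm3 in the opposite orientation, 97.0% identical over 305 bases. Phospho2 and Gm13624 had the same match to Cirbp on opposite strands, 71.4% over 255 bases with 73 mismatches. Whether Phospho2 carries the Gm13624 copy read on the other strand, and not a further one, was not checked. The best match between Cirbp and Rbm3 was 71.8% identical over 255 bases, and no copy with 95% identity was found for Cirbp.

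Rbm3 was moderately abundant and Cirbp lower in every group. Rbm3 had a mean of 31.0 FPKM in Scr_300, 23.5 in Scr_600, 39.4 in Nfat5-KO_300 and 17.2 in Nfat5-KO_600. Cirbp had a mean of 8.30 FPKM in Scr_300, 6.30 in Scr_600, 7.76 in Nfat5-KO_300 and 4.18 in Nfat5-KO_600. Both members were lowest in Nfat5-KO_600, whereas the highest mean was that of Nfat5-KO_300 for Rbm3 and that of Scr_300 for Cirbp. Among the 13414 genes that reached 0.5 FPKM in at least 1 group, Rbm3 ranked 1239th from the top in Nfat5-KO_300 and 2820th in Nfat5-KO_600, and Cirbp ranked 5604th and 7727th.

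The ratio of Rbm3 to Cirbp, both as FPKM and thus per length, was 3.74 in Scr_300, 3.73 in Scr_600, 5.07 in Nfat5-KO_300 and 4.11 in Nfat5-KO_600. It was nearly the same in the 2 Scr groups and higher in both Nfat5-KO groups. In the single Scr libraries given below, it differed more within each Scr group than between the 2 Scr means. The size of this ratio depended on the length used: the exon length of Rbm3 includes retained introns and alternative ends, and if every read came from the coding transcripts Rbm3-204 (1152 bases) and Cirbp-202 (1321 bases), the ratio would be 7.73, 7.72, 10.5 and 8.50 in the same order.

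Between 7767 and 24282 reads lay behind each Rbm3 mean and between 1153 and 2654 behind each Cirbp mean, so counting error alone was 0.679% to 1.13% for Rbm3 and 2.05% to 2.94% for Cirbp (1 SD). These depths were read from the table itself. A gene with a single read in 1 library has a value fixed by its exon length and that library's depth, and such genes gave the depth of each of the 12 libraries, from 29344029 to 37506799 reads. Counting error does not include the difference between cultures.

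In the Scr groups the mean of 2 libraries could be taken apart again, because a mean printed with many digits is met by whole reads in both libraries in only 1 way for most genes. A split existed for 94.4% of 13266 genes in Scr_600, against 4.12% when each exon length was raised by 1 base, and 10519 genes split in 1 way in both Scr groups with at most 0.05 splits expected by chance. Rbm3 and Cirbp were among them. The libraries are called deeper and shallower, since depth is the only mark that tells them apart and does not tie them to a labelled culture. The Nfat5-KO means, over 4 libraries, were not split here.

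Rbm3 had 23.6 FPKM (3984 reads) in the deeper and 38.4 FPKM (5773 reads) in the shallower Scr_300 library. It had 21.1 FPKM (3685 reads) in the deeper and 25.9 FPKM (4281 reads) in the shallower Scr_600 library. The 2 tonicities overlapped, because the deeper Scr_300 library lay between the Scr_600 libraries. Cirbp had 6.74 FPKM (631 reads) and 9.85 FPKM (820 reads) in the deeper and shallower Scr_300 libraries. It had 5.28 FPKM (511 reads) and 7.32 FPKM (670 reads) in the corresponding Scr_600 libraries, and these overlapped in the same manner. Of the 10519 genes, 31.0% had both Scr_600 libraries below both Scr_300 libraries, and neither member was among them.

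**Figure D1:**
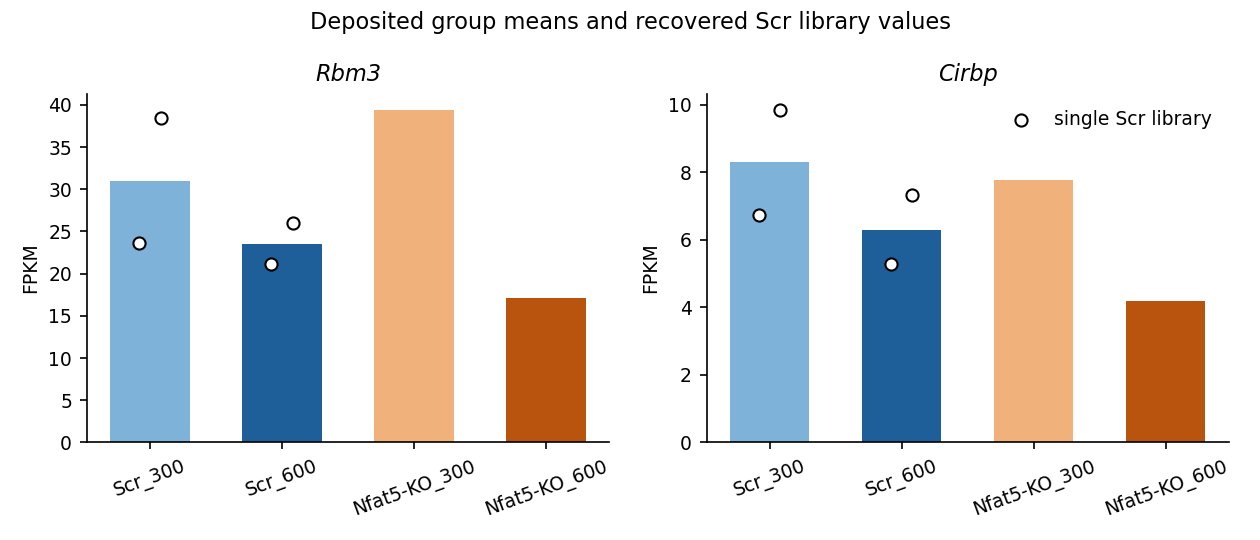
FPKM of Rbm3 (left) and Cirbp (right) by group, with bars for the deposited group means and open circles for the single Scr libraries recovered from those means, the deeper library on the left. The Nfat5-KO_600 bars, at 17.2 and 4.18 FPKM, lie below every Scr circle, and the circles of Scr_300 and Scr_600 overlap for both genes.

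The difference between the Scr_300 libraries was large for Rbm3. The shallower library was 1.63-fold higher, and among 4919 split genes averaging 5 FPKM or more, 2.26% differed as much in either direction. Cirbp was 1.45-fold higher in the same library (4.61% of genes as far). In Scr_600 the shallower library was 1.23-fold higher for Rbm3 (30.1% of genes as far) and 1.38-fold higher for Cirbp (12.6%), all on the log2(FPKM + 0.1) scale. Both members were thus higher in the shallower library of each Scr group. The 4 of 11 heat-inducible chaperone genes that could be split, Hspa1a, Dnajb1, Bag3 and Chordc1, were all lower in the shallower Scr_300 library (median log2 difference -0.33), and 2 of the 4 were lower in the shallower Scr_600 library. Of all split genes, 47.9% were lower in the shallower Scr_300 library and 48.8% in the shallower Scr_600 library. Their part in the difference between libraries was not tested.

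The first comparison asked how the members differed with tonicity when NFAT5 was lost. In Nfat5-KO_600 against Nfat5-KO_300 the log2 ratio of FPKM + 0.1 was -1.19 for Rbm3 and -0.88 for Cirbp. On this scale Rbm3 was 2.29-fold and Cirbp 1.84-fold lower. This contrast chose Rbm3. Of 12982 genes that reached 0.5 FPKM in either group, 4.11% were at least 2-fold lower and 13.8% at least 1.5-fold lower. Rbm3 passed the first mark and both members the second, and 2.38% of genes had a ratio as low as that of Rbm3 and 5.81% one as low as that of Cirbp. When the groups were rescaled to the same summed FPKM, the ratio of Rbm3 was -0.95 and no longer passed the 2-fold mark, while the median of all genes moved from -0.04 to 0.20. The genes at least 2-fold lower and higher were then 274 and 1318 in place of 534 and 812.

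The second comparison asked the same of control cells. In Scr_600 against Scr_300 the log2 ratio was -0.40 for Rbm3 and -0.39 for Cirbp, 1.32-fold and 1.31-fold lower on the same scale. Here 2.86% of 12929 genes were at least 2-fold lower and 9.01% at least 1.5-fold lower, and 0 of the 2 members passed either mark. For Rbm3, 17.02% of genes had a ratio as low, and for Cirbp 17.4%. The Rbm3 ratio was -0.71 without the deeper Scr_300 library and -0.0043 without the shallower one, so the difference of the control means rested on 1 library. For Cirbp the corresponding ratios were -0.64 and -0.10. With 2 libraries against 2, an exact two-sided permutation test cannot give a p below 0.33, and none was run.

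The third comparison set both genotypes side by side at 600 mosmol/kg. In Nfat5-KO_600 against Scr_600 the log2 ratio was -0.45 for Rbm3 and -0.58 for Cirbp. At least 2-fold lower were 3.68% of 13063 genes and at least 1.5-fold lower 9.44%, and neither member reached these marks, Cirbp lying just short of the second. With a pseudocount of 0.01 the Cirbp ratio was -0.592 and with median-of-ratios scaling -0.633, both past the 1.5-fold mark. With a pseudocount of 1 it was -0.496 and after rescaling to the same summed FPKM -0.457, both short of that mark. The genes at least 2-fold lower and higher were 481 and 491, and 407 and 654 after rescaling to the same summed FPKM. Ratios as low as that of Rbm3 occurred in 13.8% of genes and as low as that of Cirbp in 9.52%. The Nfat5-KO_600 mean of each member lay below all 4 Scr libraries, as did 25.8% of the 10519 split genes. This share shows how often a mean of 4 libraries lay below 4 single ones.

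The fourth comparison set the genotypes side by side at 300 mosmol/kg, where the members differed from each other. In Nfat5-KO_300 against Scr_300 the log2 ratio was 0.34 for Rbm3 and -0.09 for Cirbp. A ratio as high as that of Rbm3 occurred in 14.3% of 12704 genes. The Nfat5-KO_300 mean of Rbm3, 39.4 FPKM, lay above both Scr_300 libraries, the nearer at 38.4 FPKM, as did 37.7% of the split genes, and that of Cirbp lay between them. At least 2-fold lower were 2.44% of genes and at least 1.5-fold lower 6.21%, with 0 of the 2 members in either count. Without the deeper Scr_300 library the Rbm3 ratio was 0.035 and without the shallower one 0.74. For Cirbp these values were -0.34 and 0.20, on either side of 0.

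**Figure D2:**
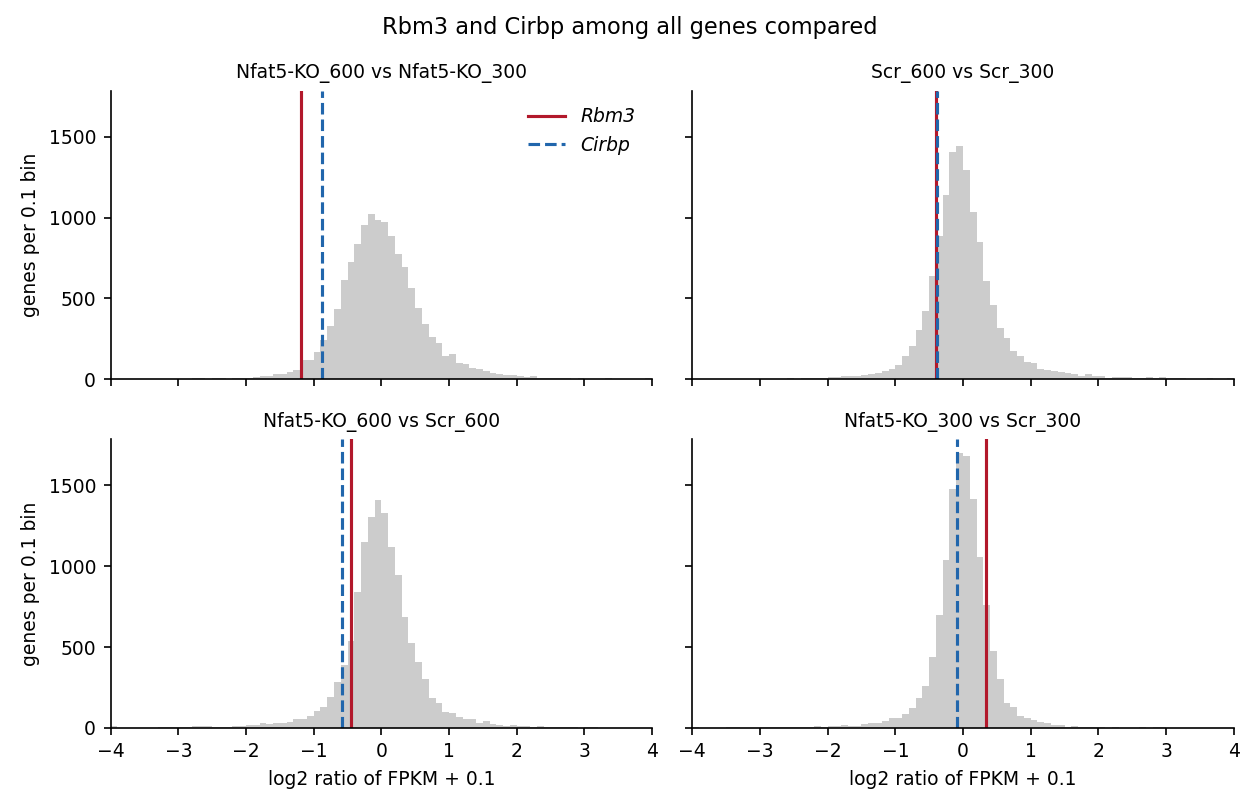
Histograms of the log2 ratio of FPKM + 0.1 of all genes that reached 0.5 FPKM in either group (x axis, clipped at the ends; y axis, genes per bin of 0.1) in the 4 comparisons, with Rbm3 as a solid and Cirbp as a dashed line. The 2 lines lie in the left tail in Nfat5-KO_600 against Nfat5-KO_300, at -1.19 and -0.88, nearly coincide in Scr_600 against Scr_300, and lie on either side of 0 in Nfat5-KO_300 against Scr_300.

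The difference of the responses, the ratio in Nfat5-KO cells minus that in Scr cells, was -0.80 for Rbm3 and -0.49 for Cirbp on the log2 scale. Values as low were found in 4.81% and 11.9% of 13414 genes. For Rbm3 it ranged from -1.19 to -0.49 and for Cirbp from -0.78 to -0.24 when single Scr libraries were left out, so the sign was kept in each case. The difference was not tested, because each Nfat5-KO group is represented by 1 mean.

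Of the 4 near-identical copies of Rbm3, 3 had means in the same order as Rbm3 at their ends, with the lowest in Nfat5-KO_600 and the highest in Nfat5-KO_300. Reads of so similar sequences can be assigned to the wrong locus, so the values of the copies are uncertain. Gm48583 (chr13:60641790-60642009), with 220 bases of exon, had 23.6 FPKM in Scr_300, 15.04 in Scr_600, 36.03 in Nfat5-KO_300 and 11.5 in Nfat5-KO_600. Rbm3-ps had 5.06, 2.87, 7.87 and 2.80 FPKM, and Gm10156 (chr7:107863039-107863500) had 7.94, 5.34, 9.42 and 3.94 FPKM in the same order. Gm13624 did not exceed 0.0369 FPKM. In Nfat5-KO_600 against Nfat5-KO_300 the log2 ratios were -1.64 for Gm48583, -1.46 for Rbm3-ps and -1.24 for Gm10156, each lower than the -1.19 of Rbm3.

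The copies are short, each had lower FPKM than Rbm3 in every group, and they held few of the reads. Together the 4 copies took 7.15% of the reads assigned to Rbm3 and its copies in Scr_300, 6.04% in Scr_600, 7.94% in Nfat5-KO_300 and 6.56% in Nfat5-KO_600. With these reads added to Rbm3, its log2 ratio was -1.22 in Nfat5-KO_600 against Nfat5-KO_300 and -0.41 in Scr_600 against Scr_300. In the single Scr libraries Rbm3-ps had 4.07 (68 reads) and 6.05 FPKM (90 reads) in Scr_300 and 2.49 (43 reads) and 3.24 FPKM (53 reads) in Scr_600, without overlap. Gm48583, at 16.95 and 30.3 FPKM in Scr_300 and 12.4 and 17.7 FPKM in Scr_600, overlapped as Rbm3 did, and Gm10156, at 5.66 and 10.2 FPKM and then 5.13 and 5.55 FPKM, did not.

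**Figure D3:**
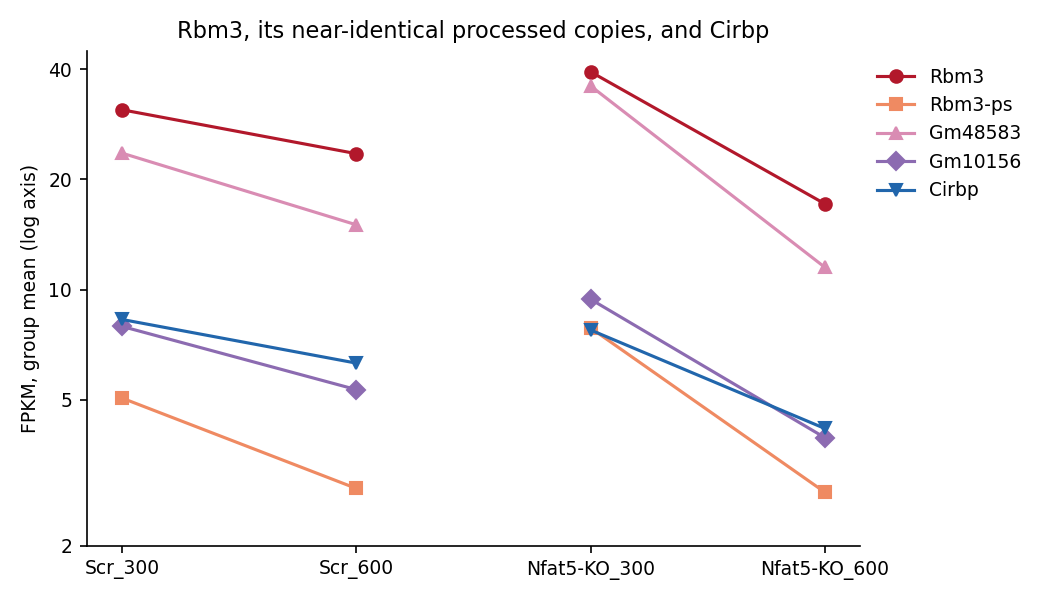
Group means in FPKM (log axis) of Rbm3, 3 of its processed copies and Cirbp in the 4 groups, with lines joining 300 and 600 mosmol/kg within a genotype. All lines descend, and more steeply in Nfat5-KO, where Rbm3 goes from 39.4 to 17.2 FPKM and Gm48583 from 36.03 to 11.5 FPKM.

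Rbm3os, an antisense RNA gene on the plus strand (chrX:8145429-8147964), overlaps the 5′ end of Rbm3, and whether strand was used in counting was not given. It had 0.578 FPKM in Scr_300, 0.704 in Scr_600, 0.314 in Nfat5-KO_300 and 0.510 in Nfat5-KO_600, from 36 to 74 reads a group. Its means were higher at 600 mosmol/kg in both genotypes, opposite in direction to Rbm3. The single Scr libraries had 0.545 and 0.612 FPKM at 300 mosmol/kg and 1.03 and 0.381 FPKM at 600 mosmol/kg, which overlapped.

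Nfat5 mRNA itself was not absent from the knockout groups. It had a mean of 5.61 FPKM in Scr_300, 7.93 in Scr_600, 3.47 in Nfat5-KO_300 and 6.88 in Nfat5-KO_600. Since small edits can leave the mRNA in place, this value does not check the loss of the protein. Of the epithelial markers 4 of 4 exceeded 0.5 FPKM in every group, but of 11 principal cell markers only 3 or 4 did, and Aqp2, the water channel that defines the cell type, had 0 to 0.245 FPKM. The summed FPKM of the principal cell markers was 10.1 in Scr_300, 8.92 in Scr_600, 20.7 in Nfat5-KO_300 and 46.9 in Nfat5-KO_600. Much of this sum was Gata3, with 3.41, 4.33, 11.8 and 30.0 FPKM in the same order. Scnn1a and Hsd11b2 were also highest in Nfat5-KO_600, at 7.03 and 6.18 FPKM, whereas Aqp3 had 2.91, 2.07, 2.93 and 2.82 FPKM. For the intercalated cell, proximal tubule, thick ascending limb and the fibroblast, endothelial and immune markers the sums did not exceed 2.71 FPKM in any group. The part of these markers in the levels of Rbm3 and Cirbp was not tested.

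Of the closest relatives of the members with a like RNA recognition motif and a long carboxy-terminal tail, Rbmx and Rbmxl1, nuclear splicing regulators, were also lower in Nfat5-KO_600 against Nfat5-KO_300. The log2 ratios were -0.83 for Rbmx and -0.59 for Rbmxl1, and -0.16 and -0.28 in Scr_600 against Scr_300. Both were smaller in size than those of Rbm3 and Cirbp in each genotype. Rbmxl2, a testis gene, was listed at 0 in every group.

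Genes named RBM share a motif rather than a function. Of 38 other protein-coding RBM genes, 29 were compared, and their median log2 ratio in Nfat5-KO_600 against Nfat5-KO_300 was -0.03 against -0.04 for all genes. At least 1.5-fold lower were 2 of the 29, against 13.8% of all genes, and at least 1.5-fold higher 2, against 14.1%. Of the 28 averaging 1 FPKM or more, 0 had a ratio as low as that of Rbm3 and 1, Rbm8a, a core component of the exon junction complex, one as low as that of Cirbp. Rbm8a had 65.1 FPKM in Nfat5-KO_300 and 29.7 in Nfat5-KO_600, a log2 ratio of -1.13. The next lowest were the splicing factor Rbm17 with -0.63 and Rbm12 with -0.56. The highest were Rbm33 with 0.64, Rbm15, an adaptor of RNA methylation, with 0.59, and Rbm4b with 0.55. In Scr_600 against Scr_300, the ratio of Rbm8a (-0.69) was again the 1 as low as those of both members, and the median was -0.05.

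The cold shock domain proteins, a separate family that shares the name but not the fold, had both lower and higher means. Of 8 listed genes 6 were compared in Nfat5-KO_600 against Nfat5-KO_300, 4 with lower and 2 with higher means and a median log2 ratio of -0.17, where 52.9% of all genes were lower. Of the same 6, 5 were lower, with a median of -0.31, in Scr_600 against Scr_300, where 54.6% of all genes were lower. Ybx3 had 176.0 FPKM in Nfat5-KO_300 and 67.3 in Nfat5-KO_600, a ratio of -1.39, lower than that of Rbm3. In Scr cells it had 131.1 FPKM at 300 mosmol/kg and 102.6 FPKM at 600 mosmol/kg, a ratio of -0.35. Ybx1, the abundant mRNA-packaging member, had -0.59 in Nfat5-KO and -0.31 in Scr cells, and Carhsp1 -0.05 and -0.11. Csdc2 had 0.80 in Nfat5-KO and -0.92 in Scr cells.

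Among the genes known to act upstream of Rbm3 and Cirbp, none of the 9 compared was at least 1.5-fold lower at 600 mosmol/kg in either genotype, against 13.8% of all genes in Nfat5-KO and 9.01% in Scr cells. Sp1, a factor reported to bind the Cirbp promoter, had log2 ratios of -0.20 in Nfat5-KO and -0.23 in Scr cells, and Hnrnph1, a splicing factor known to act on a poison exon of Rbm3, had -0.02 and -0.04. The CLK kinases, temperature sensors of splicing, had -0.42 for Clk2, 0.35 for Clk3, 0.38 for Clk1 and 0.50 for Clk4 in Nfat5-KO cells. Trpv4, a cation channel opened by warmth and by cell swelling, had the highest value of the list, 0.71 in both genotypes. Its mean was 27.6 FPKM in Scr_300, 45.0 in Scr_600, 32.9 in Nfat5-KO_300 and 53.8 in Nfat5-KO_600. Hif1a, the hypoxia factor, had 0.07 in Nfat5-KO and 0.58 in Scr cells.

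Of 5 genes for nuclear import and modification of the proteins, 0 was at least 1.5-fold lower or higher at 600 mosmol/kg in either genotype. Of all genes, 13.8% were lower and 14.1% higher by this mark in Nfat5-KO cells, and 9.01% and 10.4% in Scr cells. Prmt1, the arginine methyltransferase that modifies the glycine-rich tail of CIRBP, had log2 ratios of -0.53 in Nfat5-KO and -0.14 in Scr cells. Tnpo1, the importin for such tails, had 0.05 and 0.01. Of 8 mRNAs reported to be bound by RBM3 or CIRBP, 5 were lower and 3 higher in Nfat5-KO_600 against Nfat5-KO_300, with a median of -0.11, where 52.9% of all genes were lower. The thioredoxin mRNA Txn1 had -0.70, the checkpoint kinase mRNA Atr -0.80 and the circadian mRNA Clock -0.15 there, while Vegfa had 0.81 and Tert, the telomerase subunit, also 0.81. In Scr_600 against Scr_300 the same list had 3 lower and 5 higher, with a median of 0.07, where 54.6% of all genes were lower. By the 1.5-fold mark, 3 of the 8 were lower and 2 higher in Nfat5-KO cells, against 13.8% and 14.1% of all genes. In Scr cells 0 were lower and 3 higher, against 9.01% and 10.4%. These 3 were Vegfa (1.24), Tert (1.09) and Ptgs2 (1.09).

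Stress granules collect stalled mRNAs with their binding proteins. Of 10 genes compared, 1, Pabpc1, which codes for the poly(A)-binding protein, was at least 1.5-fold lower in Nfat5-KO_600 against Nfat5-KO_300 (log2 ratio -0.82), against 13.8% of all genes, and the median was -0.13, against -0.04 for all genes. In Scr_600 against Scr_300 the median was -0.07 and Pabpc1 had -0.47. G3bp1, a nucleator of the granules, had -0.45 in Nfat5-KO and -0.13 in Scr cells.

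Heat-inducible chaperones respond to warmth in the direction opposite to that known for Rbm3 and Cirbp. Of the 11 listed genes, Hspa1a, Hspa1b, Hsph1 and, only slightly, Bag3 had higher means at 600 mosmol/kg in Scr but not in Nfat5-KO cells. Hspa1b, an inducible HSP70 gene, had 91.1 FPKM in Scr_300 and 231.0 in Scr_600, but 52.3 in Nfat5-KO_300 and 42.5 in Nfat5-KO_600. Hspa1a had 0.439, 4.54, 0.220 and 0.175 FPKM in the same order. The 2 genes are near-identical copies, so reads could be split between them. Hsph1 had 81.7 and 157.6 FPKM in Scr and 86.6 and 84.2 FPKM in Nfat5-KO cells. Bag3 had 13.6 FPKM in Scr_300 and 14.8 in Scr_600, with log2 ratios of 0.12 in Scr and -0.24 in Nfat5-KO cells. Both Scr_600 libraries of Bag3 lay between its Scr_300 libraries, the deeper at 16.9 and the shallower at 10.4 FPKM. Its tonicities thus overlapped in Scr cells. Of the 11 chaperone genes 10 were compared in Nfat5-KO_600 against Nfat5-KO_300, where 8 were lower, 2 higher, and the median was -0.27, with 52.9% of all genes lower and a median of -0.04. Of all 11, 7 were lower and 4 higher in Scr_600 against Scr_300, with a median of -0.15, with 54.6% of all genes lower and a median of -0.04. The small heat shock protein gene Hspb1 was lower in both, with -1.79 in Nfat5-KO and -1.33 in Scr cells.

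**Figure D4:**
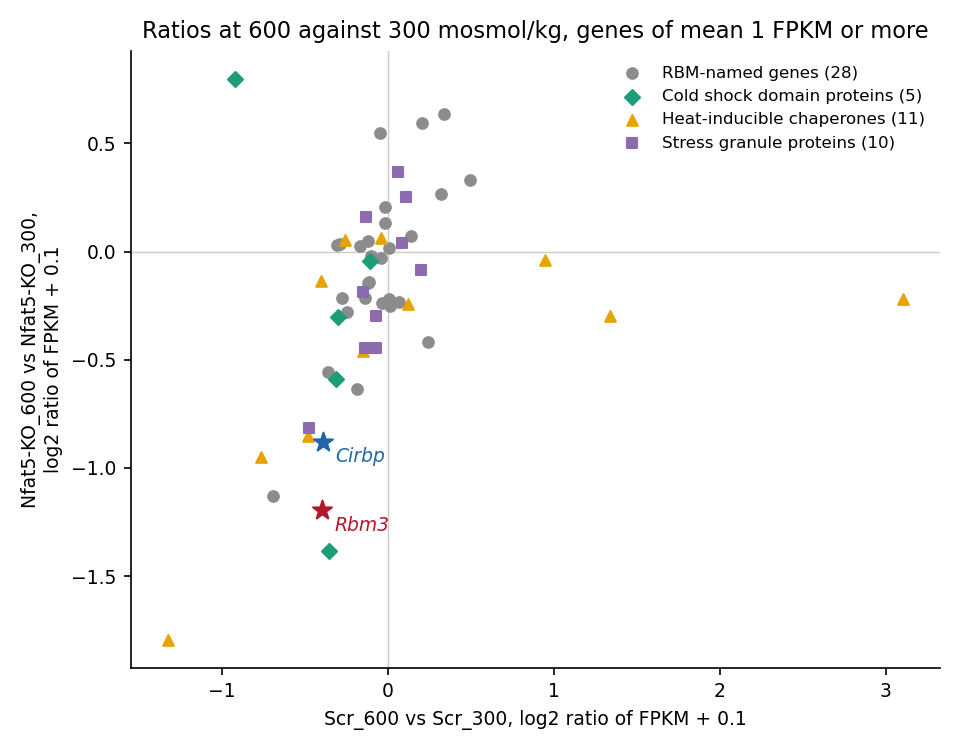
Log2 ratios of FPKM + 0.1 at 600 against 300 mosmol/kg in Scr (x axis) and Nfat5-KO cells (y axis) for listed genes averaging 1 FPKM or more, with Rbm3 and Cirbp as stars. Rbm3 (-0.40, -1.19) and Cirbp (-0.39, -0.88) lie below the other RBM genes on the y axis, apart from Rbm8a between them, whereas Hspa1a, Hspa1b and Hsph1 lie far to the right.

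The genes with the most similar pattern of 4 group means were sought among genes averaging 5 FPKM or more, by the Euclidean distance of centred log2(FPKM + 0.1) values, with 7146 genes compared. The 5 nearest to Rbm3 were the vesicle protein gene Syngr2, the ribosome assembly factor Rrs1, the spindle checkpoint ATPase Trip13, the inorganic pyrophosphatase Ppa1, and Gm10156, which is one of the processed copies of Rbm3 itself. Their distances were 0.0854 to 0.128. The 5 nearest to Cirbp were Gm7392, the chaperonin subunit Cct2, Casc4, Pgam1-ps2 and the DNA polymerase subunit Pold2, at 0.0458 to 0.0710. Cirbp stood 271st among the genes nearest to Rbm3, at a distance of 0.361, and Rbm3 694th among those nearest to Cirbp. The members were thus not each other's closest neighbours in these 4 means.

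Among the 851 genes whose 4 means averaged 50 FPKM or more, which Rbm3 (27.8 FPKM) did not reach, 22 had a ratio as low as that of Rbm3 in Nfat5-KO_600 against Nfat5-KO_300. The lowest were Ppbp (-3.16), the protease gene Plau (-2.16), S100a10 (-2.07), Tmem27 (-2.02) and Gadd45b (-1.89). In Scr_600 against Scr_300 these 5 had -0.65, -0.99, -1.31, -2.27 and -0.64, each lower than the -0.40 of Rbm3.

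The promoter of Cirbp was read from RefSeq (GRCm38.p6), which held 2 start sites for Cirbp among 32851 promoters, while Rbm3 was not matched in that table. Both start sites lie inside the annotated Cirbp gene, which begins at chr10:80165985, so an annotated transcript begins upstream of them. The 189 bases shown run from chr10:80167589-80167777 on the plus strand, up to the next annotated Cirbp exon, and capitals mark 3 motifs on either strand. They are shown because one of these, GGGCGG, is the core bound by Sp1. The second, GGAAA, is the core bound by the NFAT family, and the third is the CCAAT box.
Cirbp promoter: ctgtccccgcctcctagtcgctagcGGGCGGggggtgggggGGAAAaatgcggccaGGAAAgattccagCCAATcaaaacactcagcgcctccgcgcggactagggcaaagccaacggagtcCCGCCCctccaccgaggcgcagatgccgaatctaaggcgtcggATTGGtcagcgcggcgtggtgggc

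These 189 bases held the Sp1 core in 2 places, the NFAT core in 2 and the CCAAT box in 2, with no overlap between them. The 250 bases before the first RefSeq start site, chr10:80167589-80167838, run on into that annotated Cirbp exon. There the Sp1 core was found 3 times, and it occurred in 32.7% of all promoters of that length. The NFAT core was found in 55.6% and the CCAAT box in 33.8% of all promoters. The heat shock element core GAANNTTC (6.69% of all promoters), TATAAA (12.4%) and the cAMP element core TGACG (17.8%) had 0 matches there on either strand. At the second start site the Sp1 core was found 4 times, the cAMP element core 1 time, and the NFAT core and the CCAAT box 0 times. This second site had 0 of the 7 GENCODE M21 transcripts beginning close to it, against 3 for the first. Its 250 bases, chr10:80167921-80168170, lie downstream of the first start site. A match is only a run of letters and was not tested for binding.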

How the data were processed

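Poly-A RNA-seq libraries of 12 mpkCCD cultures were aligned to mm10 (GRCm38) with HISAT2 and counted per gene with HTSeq by the authors. The deposited table gives FPKM, 1 value per gene and group. Tool versions, the annotation release, the strand setting and how libraries were combined were not given in the sources used here. In the Scr groups the deposited FPKM of most genes equalled the arithmetic mean over libraries of reads per kilobase of GENCODE M21 exon, scaled to library depth.

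Of 54839 rows, 2436 without a value, 311 exact duplicates and 37 symbols with several rows were left out, leaving 52015 genes. Ratios were log2(FPKM + 0.1), which understates the change of low genes, for genes of at least 0.5 FPKM in either group. No p-value or SD was computed from 1 mean per group. Depths and whole reads of the Scr libraries were recovered as described above, to within rounding of the last digit, with Python 3.11.15 and numpy 2.4.6, tested on simulated data. This step and the search for copies with blastn 2.17.0 were chosen after the data were seen. The recovered reads are values of single libraries without a test.

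Rbm3, Cirbp, the gene lists and the motifs were chosen with earlier results of these data known. Named were genes of the lists, the 3 lowest and 3 highest RBM genes, the 5 nearest profiles of each member and the 5 lowest genes averaging 50 FPKM or more, together with copies, overlapping genes and Nfat5.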

Additional observations from a re-analysis of the deposited data

How the results depend on the processing

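Other pseudocounts, scalings and filters were tried, and later, after the data had been seen, each Scr library was left out and the reads of the copies were added to Rbm3. Median-of-ratios scaling, a pseudocount of 0.01 and the added copies moved none of the values tried by 0.1 or more on the log2 scale and no count by more than 1.5 times. That scaling and that pseudocount nonetheless took Cirbp past the 1.5-fold mark in Nfat5-KO_600 against Scr_600.

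Rescaling to the same summed FPKM, which was 253756, 231932, 251080 and 212247 in Scr_300, Scr_600, Nfat5-KO_300 and Nfat5-KO_600, moved Rbm3 to -0.95 in Nfat5-KO_600 against Nfat5-KO_300, -0.27 in Scr_600 against Scr_300, -0.33 in Nfat5-KO_600 against Scr_600 and -0.68 for the difference of responses. Cirbp moved to -0.64, -0.26, -0.46 and -0.38, and the genes at least 2-fold lower in the first comparison from 534 to 274. A pseudocount of 1 moved Cirbp to -0.76 in the first comparison.

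That pseudocount gave 230 genes at least 2-fold lower in Nfat5-KO_600 against Nfat5-KO_300, 124 in place of 370 in Scr_600 against Scr_300, 203 in place of 481 in Nfat5-KO_600 against Scr_600 and 87 in place of 310 in Nfat5-KO_300 against Scr_300. Without a filter the last 3 counts were 737, 798 and 647, and with a mean of at least 1 FPKM they were 201, 289 and 153.

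Leaving out single Scr libraries gave Rbm3 -0.71 to -0.0043 and Cirbp -0.64 to -0.10 in Scr_600 against Scr_300, Rbm3 -0.59 to -0.30 and Cirbp -0.80 to -0.33 in Nfat5-KO_600 against Scr_600, Rbm3 0.035 to 0.74 and Cirbp -0.34 to 0.20 in Nfat5-KO_300 against Scr_300, and Rbm3 -1.19 to -0.49 and Cirbp -0.78 to -0.24 for the difference of responses. Nfat5-KO libraries were not left out, since their means were not split. The cause of these shifts was not tested. No paired analysis was possible because each group is deposited as 1 mean, and the recovered Scr libraries carry no replicate number.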
